A study of Homo sapiens with 18 samples.

Results

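The 9 genes described here encode parts of the machinery by which a breast epithelial cell holds on to its basement membrane. They are the integrin subunits ITGA2, ITGA3, ITGA6, ITGB1 and ITGB4, the laminin chains LAMA3 and LAMB3, the transmembrane collagen COL17A1 and the plakin DST. They were taken as the rows of the RNA-Seq files that carry the Entrez gene ID of these symbols, 9 of 23604 rows listed in at least 1 library, and all 9 passed the filter on low counts that left 16948 genes to be tested. The rows were matched by gene ID and not by a measured value, but the members were chosen with earlier results of these data known. RNAPII peaks over their transcription start sites (TSSs) were read from the 4 peak lists, 1 per condition.

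The cells were MCF10A-ErSrc, a non-tumorigenic human breast epithelial line that carries an inducible v-Src kinase. All groups carry that transgene. NT cells received no tamoxifen, TAM cells were transformed by switching v-Src on with tamoxifen, and each kind was left for 4 h in DMSO or in 1 dose of Triptolide (TPL), a compound that targets XPB, a helicase of the transcription factor TFIIH. Each of the 4 groups (NT, NT + TPL, TAM and TAM + TPL) had 2 RNA-Seq libraries, which the study calls biological replicates of this single line. Total expected counts were between 7461309 and 8349448 per library, and the 9 genes took between 0.538 and 0.763% of them. As a check of the cell type, the summed level of 6 basal breast epithelial markers was 12576 to 14213 FPKM in NT libraries (8747 to 10697 after TPL) and 2914 to 3105 in TAM libraries (1319 to 1453 after TPL), with all 6 at 1 FPKM or more in both DMSO groups. The 4 general epithelial markers summed to between 609 and 954 FPKM in every library. Of the other lists, 3 luminal receptor markers gave 39.2 to 255 FPKM with PGR listed at 0 in NT and TAM cells, 6 mesenchymal markers 399 to 573, 3 immune markers 0.32 to 2.14, and 2 endothelial markers 0.46 to 1.73.

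Hemidesmosomes are junctions that anchor the keratin filaments of basal epithelial cells to the basement membrane. Their core is the integrin made of the ITGA6 and ITGB4 chains, which binds outside the cell to a laminin that contains LAMA3 and LAMB3, and is tied inside the cell to keratins by plectin (PLEC) and by the epithelial form of DST, with COL17A1 bridging the membrane. ITGB1 pairs instead with ITGA2, a collagen-binding chain, or with ITGA3, a laminin-binding chain, in adhesions that link to actin. Integrin chains reach the cell surface as pairs, and laminin chains are secreted as assembled molecules.

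Of the TSSs whose peaks differed between conditions, those of LAMB3, COL17A1, LAMA3 and DST are shown with the 250 bases before them, read on the gene's strand from GRCh37, the build of the peak lists. Capitals mark the TATA box letters TATAAA, the AP-1 letters (TGAxTCA with any base as x) or the GC box letters GGGCGG on either strand. LAMA3 and DST are given at a main and at an internal start, since peaks over these differed.

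LAMB3, chr1:209825771-209826020, minus strand: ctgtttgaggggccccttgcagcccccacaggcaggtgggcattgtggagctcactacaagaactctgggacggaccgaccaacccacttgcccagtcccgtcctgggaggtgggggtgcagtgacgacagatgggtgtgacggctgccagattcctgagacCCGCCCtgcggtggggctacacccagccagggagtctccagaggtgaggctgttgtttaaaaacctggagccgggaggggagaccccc
COL17A1, chr10:105845639-105845888, minus strand: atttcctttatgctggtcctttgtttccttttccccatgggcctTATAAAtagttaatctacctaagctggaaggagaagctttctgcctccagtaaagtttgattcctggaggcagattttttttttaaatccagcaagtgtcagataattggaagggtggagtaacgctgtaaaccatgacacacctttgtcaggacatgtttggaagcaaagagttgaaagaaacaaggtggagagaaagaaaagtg
LAMA3 main start, chr18:21269167-21269416, plus strand: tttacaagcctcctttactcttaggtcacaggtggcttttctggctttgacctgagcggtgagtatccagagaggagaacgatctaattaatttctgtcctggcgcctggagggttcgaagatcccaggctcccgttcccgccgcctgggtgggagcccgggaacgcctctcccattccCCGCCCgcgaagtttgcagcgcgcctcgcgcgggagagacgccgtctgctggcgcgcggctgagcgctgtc
LAMA3 internal start, chr18:21452734-21452983, plus strand: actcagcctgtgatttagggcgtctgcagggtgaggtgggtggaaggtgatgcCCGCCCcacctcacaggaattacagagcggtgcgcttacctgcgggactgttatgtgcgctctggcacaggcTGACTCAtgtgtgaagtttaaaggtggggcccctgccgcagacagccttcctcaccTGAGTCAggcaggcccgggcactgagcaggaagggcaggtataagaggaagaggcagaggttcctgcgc
DST main start, chr6:56819629-56819878, minus strand: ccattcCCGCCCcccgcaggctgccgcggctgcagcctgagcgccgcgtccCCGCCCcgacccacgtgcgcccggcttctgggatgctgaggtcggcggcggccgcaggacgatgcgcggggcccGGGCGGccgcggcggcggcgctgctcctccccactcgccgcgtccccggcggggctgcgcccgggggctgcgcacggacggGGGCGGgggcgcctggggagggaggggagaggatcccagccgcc
DST internal start, chr6:56507688-56507937, minus strand: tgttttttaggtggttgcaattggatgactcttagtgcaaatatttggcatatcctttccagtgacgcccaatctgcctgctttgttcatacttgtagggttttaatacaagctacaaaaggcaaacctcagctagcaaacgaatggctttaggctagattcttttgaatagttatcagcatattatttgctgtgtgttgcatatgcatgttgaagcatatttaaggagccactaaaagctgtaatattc

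Over windows from 250 bases before to 50 bases after the main TSS of 19869 protein-coding genes, 61.5% held the GC box, 9.63% the TATA box and 5.41% the AP-1 letters, counting both strands, and no 2 matches overlapped in the members. The main starts of 8 of the 9 genes held the GC box, which COL17A1 lacked. COL17A1 was the member with the TATA box letters, 206 bases before its TSS. Around the starts shown, the AP-1 letters lay in 2 places within the 250 bases before the internal LAMA3 start and 25 bases after the main DST start, outside the stretch printed above. LAMB3, whose RNA moved most, held a GC box 88 bases before its TSS and neither of the other motifs, and the internal DST start held none of the 3. A match is a run of letters in a window and not a measured binding site.

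Levels were compared between genes in FPKM, which divide by transcript length. The 9 genes spanned a wide range, from ITGB4 at 379 ± 19.1 FPKM (SD, n = 2) to DST at 19.7 ± 5.97 (SD, n = 2) in NT cells. The order there was ITGB4, LAMB3, ITGB1, ITGA3, LAMA3, COL17A1, ITGA6, ITGA2 and DST. The library ranges of ITGB1 and ITGA3, of LAMA3, COL17A1 and ITGA6 in turn, and of ITGA2 and DST overlapped, so these neighbours did not differ beyond their spread. Even ITGA2 and DST were above 81.6 and 80.3% of the genes tested. In NT + TPL cells LAMB3 stood below ITGB4, ITGB1, COL17A1, LAMA3 and ITGA3, and ITGA2 came last, whereas in TAM cells LAMB3 led, with ITGA3 and ITGB4 next and overlapping. In TAM + TPL cells ITGB4 and LAMB3 led with overlapping ranges, and DST was last. ITGA6 was placed in these orders by its gene ID row alone, although a second row also held reads of it. Summed, its rows were at 76.7 and 125.3 FPKM in NT libraries, in the range of LAMA3 and COL17A1. They were at 51.8 and 32.8 in NT + TPL libraries, overlapping LAMB3, and at 34.0 and 32.9 in TAM libraries, above ITGA2.

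**Figure D1:**
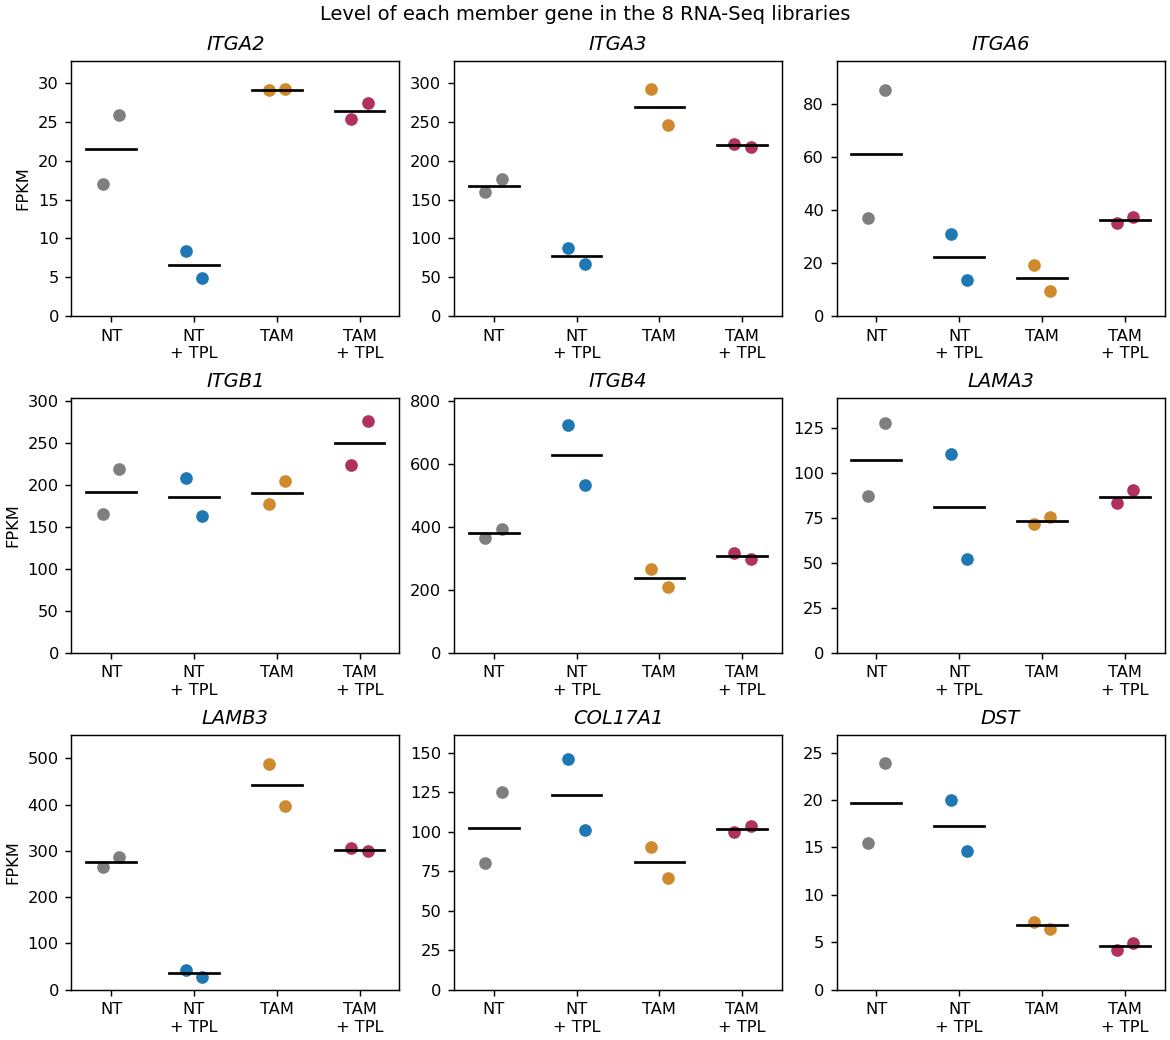
FPKM of each gene (vertical axes, from 0) in the 8 RNA-Seq libraries, with 1 point per library and a bar at the mean of the 2 libraries of each group. LAMB3 lay between 27.0 and 42.6 FPKM in NT + TPL cells and at 266 FPKM or more in the other 3 groups, and ITGB4 was highest in NT + TPL cells.

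The first question was how TPL changed these transcripts in cells that were not transformed. LAMB3, the β3 chain of the laminin, fell most: it was at 266 and 286 FPKM in the NT libraries and at 42.6 and 27.0 in the NT + TPL libraries. The TPL libraries lay far below both controls, a log2 fold change of -3.001 ± 0.22 (SE) and an 8.003-fold lower level (edgeR quasi-likelihood test with Benjamini-Hochberg adjustment, adjusted p = 0.000323). These are bulk measurements of shares of RNA, so fewer cells with the transcript and less of it per cell cannot be told apart. Falls and rises are relative to the other genes, and a loss of total RNA with TPL would not show in them. ITGA2, the chain of the collagen receptor, was at 17.1 and 25.9 FPKM in NT and at 8.33 and 4.96 in NT + TPL libraries. The groups did not overlap and the log2 fold change was -1.71 ± 0.27 (SE, edgeR adjusted p = 0.00395). ITGA3, the chain of the laminin receptor that pairs with ITGB1, was at 160 and 176 FPKM in NT and at 87.4 and 67.6 in NT + TPL libraries. It too fell without overlap, by 1.13 ± 0.16 on the log2 scale (SE, edgeR adjusted p = 0.0023).

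ITGB4, the chain particular to the hemidesmosomal integrin, went the other way. It was at 366 and 393 FPKM in NT and at 724 and 533 in NT + TPL libraries, so that both TPL libraries lay above both controls. The log2 fold change was 0.72 ± 0.17 (SE, edgeR adjusted p = 0.019), and it was 0.34 with an adjusted p of 0.191 when libraries were scaled to equal GAPDH, which sets the median of all genes at -0.26 instead of 0.09. It was also lost in the fit of the 2 groups alone, at 0.73 with an adjusted p of 0.0641, and, at 0.65, 0.76 and 0.52 with adjusted p of 0.099, 0.0807 and 0.0553, without NT replicate 1, NT replicate 2 or NT + TPL replicate 1.

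By the study's thresholds, an adjusted p up to 0.001 and a change of 1.2 or more in size on the log2 scale, 1 of the 9 genes (LAMB3) was called with TPL in NT cells, where 3.93% of all genes tested were. With an adjusted p up to 0.05 and no minimum fold, 3 of the 9 fell, against 19.8% of all genes, and 1 rose, against 17.2%. Here and in the counts below, ITGA6 entered by its gene ID row, which did not pass. With its 2 rows summed, ITGA6 also fell in this contrast (edgeR adjusted p = 0.00169). That p is from another fit, with the rows of every symbol summed. There 7500 of 15756 symbols passed at an adjusted p up to 0.05, against 6274 of 16948 genes in the reported fit. The median log2 fold change of the 9 was -0.41, and that of all genes tested 0.09. Genes of similar transcript length had a median of -0.16. The stricter LAMB3 call was kept without NT + TPL replicate 1 and not without any of the other 7 libraries, but over the 8 fits that leave out a library the log2 fold change stayed between -3.32 and -2.72, with adjusted p from 0.000773 to 0.00327. In those fits the stricter rule called 213 genes of all tested without NT + TPL replicate 1, 19 without NT + TPL replicate 2 and 0 when any 1 of the other 6 libraries was left out.

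In TAM cells none of the 9 gene ID rows passed the edgeR test for TPL, while the second row of ITGA6 under a transcript accession did. LAMB3 was at 488 and 396 FPKM in TAM and at 306 and 299 in TAM + TPL libraries. The libraries did not overlap, yet the log2 fold change of -0.59 ± 0.21 (SE) did not pass (edgeR adjusted p = 0.0638). It passed without NT + TPL replicate 1 or 2, at -0.59 in both (adjusted p = 0.0168 and 0.0171), and in the fit of the 2 groups alone (adjusted p = 0.0192). ITGA2 was at 29.2 and 29.2 FPKM in DMSO, and the TPL libraries held 25.4 and 27.4, a log2 difference of -0.19 ± 0.26 (SE, edgeR adjusted p = 0.61) that was 0.054 under upper quartile normalization. ITGA3 was at 293 and 246 FPKM in DMSO against 222 and 217 in TPL, which differ by -0.34 ± 0.15 on the log2 scale (SE, edgeR adjusted p = 0.128), and ITGB4 at 266 and 209 against 317 and 298 FPKM, which differ by 0.32 ± 0.17 on the log2 scale (SE, edgeR adjusted p = 0.19). With edgeR, 0 of the 9 genes passed by either rule in TAM cells, where 2.88% of all genes were called by the stricter rule and 14.3% rose and 18.6% fell by the second rule. At an unadjusted p under 0.05 there were 2 (LAMB3 and ITGA6), as for 7640 of all 16948 genes. DESeq2 gave 1 (LAMB3) by the second rule and 6675 of all genes, and limma on log2(FPKM + 1) gave 0 and 6138 of all genes. The members' median was 0.22 and that of all genes 0.05.

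The difference between the TPL effects in TAM and NT cells was tested as an interaction. For LAMB3 it was 2.41 ± 0.29 on the log2 scale (SE), with an edgeR adjusted p of 0.0492, so 1 of the 9 genes passed, against 0.0885% of all genes tested on that side. By the stricter rule 0 of the 9 were called with edgeR, where 0.0% of all genes were. At an unadjusted p under 0.05 there were 4, as for 1799 of all 16948 genes. By the stricter rule DESeq2 called 1 member and 144 of all genes, and limma on log2(FPKM + 1) 0 members and 0 of all genes. The LAMB3 difference lay between 2.13 and 2.74 over all 21 fits and passed in 11 of them. It failed without either NT, TAM or TAM + TPL library, at 2.27 to 2.56 and adjusted p up to 0.215. The interactions of ITGA2 (1.53 ± 0.37, SE, edgeR adjusted p = 0.234) and ITGA3 (0.79 ± 0.22, SE, edgeR adjusted p = 0.285) pointed the same way and did not pass, nor did that of ITGB4 (-0.39 ± 0.25, SE, edgeR adjusted p = 0.603).

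Averaged over NT and TAM cells, LAMB3 fell by 1.80 ± 0.15 on the log2 scale (SE, edgeR adjusted p = 0.000153), ITGA2 by 0.95 ± 0.19 (SE, edgeR adjusted p = 0.00554) and ITGA3 by 0.73 ± 0.11 (SE, edgeR adjusted p = 0.00165). ITGB4 rose by 0.52 ± 0.12 (SE, edgeR adjusted p = 0.0115). The stricter rule called 1 of the 9, against 10.1% of all genes, and at an adjusted p of at most 0.05 the counts were 3 lower and 1 higher, against 26.1 and 25.6% of all genes, which for the rises is below the background and for the falls close to it. The stricter call was kept without either NT + TPL library or TAM replicate 2 and lost without any of the other 5 libraries, and LAMB3 lay within -1.957 to -1.65 over all 8 such fits, with adjusted p up to 0.00213, while the rule called between 358 and 1556 of all genes. Scaled to equal GAPDH, the ITGB4 value was 0.27 with an adjusted p of 0.123. The reference genes stood at 0.24 ± 0.098 (SE, edgeR adjusted p = 0.0797) for GAPDH and at -1.21 ± 0.11 (SE, edgeR adjusted p = 0.00022) for ACTB.

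**Figure D2:**
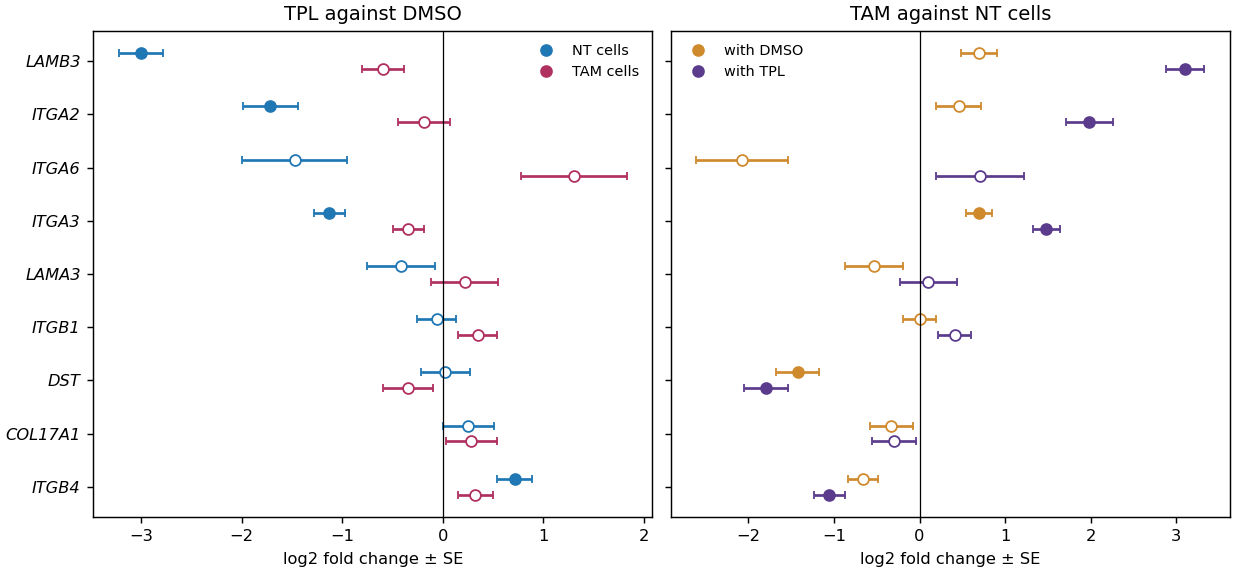
Log2 fold changes (horizontal axes) with their SE from edgeR, for TPL against DMSO in each kind of cell on the left and for TAM against NT cells at each treatment on the right. Filled points have an adjusted p of at most 0.05 and open points do not. LAMB3 stood at -3.001 with TPL in NT cells and at 3.10 in TAM against NT cells with TPL.

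Transformed and untransformed cells were then compared, first with DMSO. DST, which encodes a family of cytoskeletal linkers that includes the hemidesmosomal BPAG1e, was at 15.5 and 23.9 FPKM in NT and at 7.18 and 6.36 in TAM libraries. TAM libraries were lower without overlap, by 1.42 ± 0.25 on the log2 scale (SE, edgeR adjusted p = 0.0199). ITGA3 stood at 160 and 176 FPKM in NT and at 293 and 246 in TAM libraries, and rose by 0.70 ± 0.15 on the log2 scale (SE, edgeR adjusted p = 0.0434), which was 0.22 with an adjusted p of 0.416 when scaled to equal GAPDH. LAMB3 at 0.70 ± 0.21 (SE, edgeR adjusted p = 0.108), ITGA2 at 0.46 ± 0.26 (SE, edgeR adjusted p = 0.403, and -0.042 when scaled to equal GAPDH) and ITGB4 at -0.66 ± 0.17 (SE, edgeR adjusted p = 0.0789) did not pass. Without NT + TPL replicate 1 or 2 LAMB3 passed, at 0.72 in both (adjusted p = 0.0245 and 0.0248), and without the first of these ITGB4 did, at -0.63 (adjusted p = 0.0496).

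At an adjusted p of at most 0.05, 1 of the 9 genes was higher in TAM cells, against 3.46% of all genes tested, and 1 was lower, against 3.39%. The stricter rule called 0 of the 9 with edgeR and 0.655% of all genes, while 5 members had an unadjusted p under 0.05, as did 3380 of all 16948 genes. DESeq2 called 1 member and 745 of all genes by the stricter rule, and 5 members and 2066 of all genes at an adjusted p of at most 0.05. With limma on log2(FPKM + 1) these were 0 members and 170 of all genes, and 2 members and 1326 of all genes. The members' median was -0.33, and that of all genes -0.03. DST did not pass without NT replicate 2, either TAM library or either TAM + TPL library, with values from -1.51 to -1.09 and adjusted p from 0.0555 to 0.16. ITGA3 did not pass without any of these or without NT replicate 1, at 0.57 to 0.81 and adjusted p up to 0.238. The basal marker sum given above was lower in TAM than in NT cells. KRT5 alone made up 6250 and 5776 FPKM of it in the NT libraries. Of the 6 markers, 3 were lower and 0 higher at an adjusted p of at most 0.05, with log2 fold changes from -2.18 to 0.36. The part of these markers in the differences of the members was not tested.

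With TPL in both kinds of cell, 5 of the 9 genes differed between TAM and NT cells. LAMB3 was at 306 and 299 FPKM in TAM + TPL against 42.6 and 27.0 in NT + TPL libraries, an 8.59-fold higher level (log2 fold change 3.10 ± 0.22, SE, edgeR adjusted p = 0.000534). ITGA2 was 1.98 ± 0.27 higher on the log2 scale (SE, edgeR adjusted p = 0.00772) and ITGA3 1.48 ± 0.16 higher (SE, edgeR adjusted p = 0.00264). ITGB4 was lower, by 1.05 ± 0.17 (SE, edgeR adjusted p = 0.016), with 317 and 298 against 724 and 533 FPKM. DST was at 4.20 and 4.89 FPKM in TAM + TPL and at 20.0 and 14.7 in NT + TPL libraries, a fall of 1.80 ± 0.26 on the log2 scale (SE, edgeR adjusted p = 0.00851).

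In this comparison 3 of the 9 genes were higher, against 2.83% of all genes tested, and 2 lower, against 4.21%, at an adjusted p of at most 0.05. The stricter rule called 1 of the 9 and 0.596% of all genes. The members' median was 0.41 and that of all genes -0.02. The stricter LAMB3 call was kept without NT + TPL replicate 1 and lost without any of the other 7 libraries, at 2.86 to 3.46 over the 8 fits with adjusted p up to 0.00889, in which the rule called between 6 and 73 of all genes. Without TAM + TPL replicate 1 or 2, ITGA2 stood at 2.05 and 1.965 (adjusted p = 0.0531 and 0.0599), ITGB4 at -1.08 and -0.97 (adjusted p = 0.121 and 0.159) and DST at -1.67 and -1.87 (adjusted p = 0.0986 and 0.0777). The comparison shares its NT + TPL libraries with that of TPL in NT cells, so the LAMB3 values of both rest on the same 2 low libraries.

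COL17A1, ITGB1 and LAMA3 did not pass in any of the 6 contrasts, with lowest adjusted p values (edgeR) of 0.241, 0.206 and 0.359. ITGB1, the partner of many α chains, was at 166 and 219 FPKM in the NT libraries, with 209 and 164 after TPL, and at 177 and 205 in the TAM libraries, with 224 and 276 after TPL. Its groups overlapped in NT cells, and with TPL in TAM cells its libraries lay above the controls without passing the test. COL17A1, the transmembrane collagen of hemidesmosomes, was at 80.1 and 125.1 FPKM in the NT libraries, with 146 and 101 after TPL, and at 90.6 and 71.0 in the TAM libraries, with 99.7 and 104 after TPL. LAMA3, the α3 chain, was at 87.4 and 128 FPKM in the NT libraries, with 110 and 52.0 after TPL, and at 71.6 and 75.4 in the TAM libraries, with 83.2 and 90.4 after TPL. The NT + TPL replicates of LAMA3 were the widest apart of these groups, and without the first of them LAMA3 passed for TPL in NT cells (adjusted p = 0.0226).

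ITGA6, the α chain of the hemidesmosomal integrin, was the least certain member, because the files hold its reads in 2 rows. The row with the gene ID was at 36.98 and 85.2 FPKM in the NT libraries, with 30.9 and 13.6 after TPL, and at 19.4 and 9.56 in the TAM libraries, with 35.0 and 37.5 after TPL. TPL libraries were lower than the controls in NT cells (log2 fold change -1.47 ± 0.53, SE, edgeR adjusted p = 0.0651) and higher in TAM cells (1.304 ± 0.53, SE, edgeR adjusted p = 0.0986), and neither passed. The first did without NT replicate 1 (-1.967, adjusted p = 0.0434), without NT + TPL replicate 1 (-2.12, adjusted p = 0.0435), scaled to equal GAPDH (adjusted p = 0.0341) and with at least 10 counts in every library (adjusted p = 0.0214). The second did with that minimum of counts (1.38, adjusted p = 0.0269) and in the fit of the 2 groups alone (1.31, adjusted p = 0.0265). A second row, listed under a RefSeq transcript accession of ITGA6, held between 4.60 and 70.3% of the counts of the 2 rows, with 42.1 and 70.3% in the replicates of TAM cells. It was at 39.7 and 40.1 FPKM in the NT libraries, with 20.9 and 19.2 after TPL, and at 14.6 and 23.4 in the TAM libraries, with 1.78 and 3.12 after TPL. This row fell with TPL in NT cells, with a log2 fold change of -1.002 ± 0.28 (SE, edgeR adjusted p = 0.0316), and in TAM cells, with -3.001 ± 0.32 (SE, edgeR adjusted p = 0.00104), and by the stricter rule it was called with TPL averaged, at -2.001 ± 0.21 (SE, edgeR adjusted p = 0.000404). It is not one of the 9 rows with a gene ID and is not in their counts. Summed, the rows were at 76.7 and 125.3 FPKM in the NT libraries, with 51.8 and 32.8 after TPL, and at 34.0 and 32.9 in the TAM libraries, with 36.8 and 40.6 after TPL. In the separate fit with the rows of every symbol summed, ITGA6 fell with TPL in NT cells by 1.27 ± 0.25 on the log2 scale (SE, edgeR adjusted p = 0.00169). It was lower in TAM than in NT cells with DMSO by 1.60 ± 0.25 (SE, edgeR adjusted p = 0.00136). In TAM cells the summed change with TPL was 0.21 ± 0.25 (SE, edgeR adjusted p = 0.504), and the summed interaction of 1.49 ± 0.35 did not pass (SE, edgeR adjusted p = 0.0829).

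Since integrins and laminins work as assembled chains, the ratio of partner transcripts was taken within each library, where no scaling of libraries enters. LAMB3 over LAMA3 went from 2.65 ± 0.57 (SD, n = 2) to 0.452 ± 0.094 with TPL in NT cells and from 6.03 ± 1.10 to 3.49 ± 0.26 in TAM cells. LAMB3 was thus the more abundant of the pair in 6 libraries and the less abundant in both NT + TPL libraries.

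ITGA3 over ITGB1 was 0.884 ± 0.113 (SD, n = 2) in NT cells and 0.416 ± 0.00455 after TPL, and 1.43 ± 0.32 in TAM cells and 0.888 ± 0.143 after TPL. ITGA2 over ITGB1 was 0.111 ± 0.011 (SD, n = 2), 0.0351 ± 0.0068, 0.154 ± 0.015 and 0.106 ± 0.0099 in the same order. Both ratios were lower with TPL in NT and in TAM cells without overlap of the libraries. The summed ITGA6 rows over ITGB4 were 0.264 ± 0.077 (SD, n = 2) in NT and 0.0665 ± 0.0071 in NT + TPL cells, against 0.143 ± 0.021 in TAM and 0.126 ± 0.014 in TAM + TPL cells, where the libraries overlapped. With 2 libraries per group these ratios are given as values and were not tested.

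**Figure D3:**
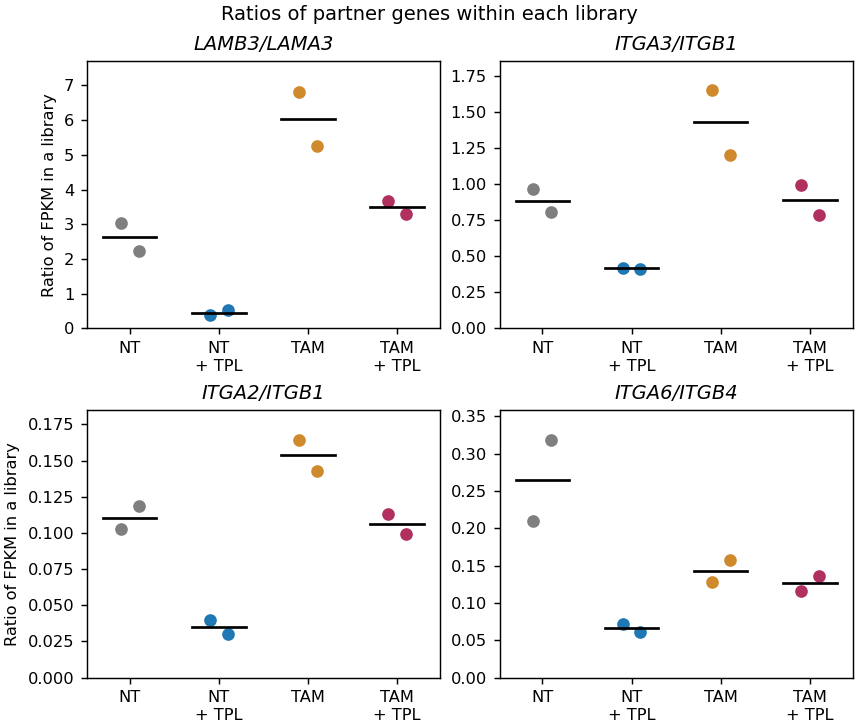
Ratio of the FPKM of 2 partner genes within a library (vertical axes, from 0), with 1 point per library and a bar at the mean of each of the 4 groups. ITGA6 is the sum of its 2 rows. LAMB3/LAMA3 was below 1 in the NT + TPL libraries and above 1 in the other 6.

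The other chains of these families were taken from lists of the families. LAMB1, the β chain of other laminins, moved opposite to LAMB3 with TPL in NT cells. It was at 23.4 and 31.1 FPKM in NT and at 300.98 and 198 in NT + TPL libraries, and rose by 3.18 ± 0.24 (SE, edgeR adjusted p = 0.000348). LAMB3 over LAMB1 thereby went from 10.3 ± 1.54 (SD, n = 2) in NT to 0.139 ± 0.0038 in NT + TPL cells, and from 3.26 ± 0.31 in TAM to 0.882 ± 0.151 in TAM + TPL cells. Of 10 other laminin chains, 8 were tested, and with TPL averaged over both kinds of cell 3 rose and 1 fell at an adjusted p of at most 0.05, against 25.6 and 26.1% of all genes, with a median log2 fold change of 0.55 beside 0.08 for all genes. LAMB2 rose by 0.73 ± 0.15 (SE, edgeR adjusted p = 0.00594). Without TPL, LAMB1 was higher in TAM than in NT cells by 2.33 ± 0.24 (SE, edgeR adjusted p = 0.00217) and LAMB2 lower by 0.97 ± 0.21 (SE, edgeR adjusted p = 0.04).

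Of 21 other integrin subunits, 19 were tested, and with TPL averaged 9 rose and 1 fell, against 25.6 and 26.1% of all genes, with a median log2 fold change of 0.90. The list includes chains near 0 FPKM in NT libraries, such as ITGA9 at 0.03 and 0.06 and ITGA8 at 0.26 and 0.41. How far the 9 rises and the median rest on chains at such low levels was not tested. The one that fell was ITGA5, the fibronectin-binding partner of ITGB1, at 74.9 and 76.3 FPKM in the NT libraries, with 31.1 and 25.0 after TPL, and at 139 and 127 in the TAM libraries, with 122 and 120 after TPL. Its pattern over the groups had the order of LAMB3 and ITGA3, and it was higher in TAM than in NT cells with DMSO by 0.83 ± 0.13 on the log2 scale (SE, edgeR adjusted p = 0.0124). ITGAM, an integrin chain of leukocytes, was at 0.020 to 0.050 FPKM in the 4 DMSO libraries and at 5.20 to 9.82 in the 4 TPL libraries. ITGA2B, an integrin chain of platelets, was at 0.070 FPKM or less without TPL and at 1.83 or more with it. The summed immune markers were at 0.32 to 0.71 FPKM in the DMSO libraries and at 1.33 to 2.14 in the TPL libraries, and their part in these differences was not tested. No RNAPII peak was listed at any annotated start of ITGAM or ITGA2B in any of the 4 lists. ITGB8 was lower in TAM than in NT cells, by 1.38 ± 0.27 (SE, edgeR adjusted p = 0.0276).

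Among 14 hemidesmosome and basement membrane partners, 7 rose and 3 fell with TPL averaged, against 25.6 and 26.1% of all genes, with a median of 0.24. PLEC, the plakin that ties ITGB4 to keratins, was at 209 and 223 FPKM in NT and at 71.2 and 54.1 in NT + TPL libraries, while TAM libraries held 212 and 168, with 72.6 and 73.2 after TPL. It fell in both kinds of cell, by 1.61 ± 0.12 on average (SE, edgeR adjusted p = 0.000104), while ITGB4 did not fall. KRT14, a basal keratin, fell by 1.31 ± 0.21 (SE, edgeR adjusted p = 0.00233). COL7A1, the anchoring fibril collagen, rose by 1.90 ± 0.12 (SE, edgeR adjusted p = 7.13e-05) from low levels, and HSPG2, the basement membrane proteoglycan perlecan, by 1.22 ± 0.23 (SE, edgeR adjusted p = 0.00483). CD151, a tetraspanin that associates with laminin-binding integrins, stood at -0.23 ± 0.10 (SE, edgeR adjusted p = 0.0872). In TAM against NT cells with DMSO, 7 of the 14 were lower and 0 higher, against 3.39 and 3.46% of all genes, with a median of -1.08 beside -0.03 for all genes. KRT5, the other basal keratin, was lower by 2.18 ± 0.14 (SE, edgeR adjusted p = 0.000366) and COL4A6, a basement membrane collagen chain, by 2.23 ± 0.16 (SE, edgeR adjusted p = 0.000555). KRT5 and KRT14 are also basal markers.

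Of 15 integrin adaptors, 13 were tested, and with TPL averaged 2 rose and 4 fell, with a median of 0.09. These shares of the 13 stand beside 25.6 and 26.1% of all genes, and that of the falls is near it. TNS4, a tensin that binds integrin tails, fell by 2.89 ± 0.26 (SE, edgeR adjusted p = 0.000211) and FERMT1, the kindlin of epithelia, fell by 1.79 ± 0.14 (SE, edgeR adjusted p = 0.000115). LIMS1 and FERMT2 rose, by 0.45 ± 0.12 (SE, edgeR adjusted p = 0.0153) and 0.42 ± 0.12 (SE, edgeR adjusted p = 0.0198). VCL, the actin linker vinculin, was lower in TAM than in NT cells with DMSO by 1.42 ± 0.16 (SE, edgeR adjusted p = 0.00314).

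Of the members, LAMB3, ITGA2 and ITGA3 shared a pattern over the 8 libraries. As a description, Pearson's r of log2(FPKM + 1) was 0.977 between LAMB3 and ITGA2, 0.977 between LAMB3 and ITGA3 and 0.973 between ITGA2 and ITGA3, and each of the 3 was among the 100 genes most like the others of 14135 compared. ITGB4 ran opposite to them, with r of -0.872 to LAMB3. For ITGA6, ITGB1, ITGB4, LAMA3, COL17A1 and DST, 0 members were among the 100 genes most like each. The points share 4 groups of 2 libraries, so these values mostly restate the differences between groups. The gene most like each member was MTHFD1L for LAMB3 (r = 0.995), CAPRIN2 for ITGA2 (r = 0.987), GOLGA2P7, a pseudogene whose reads may be shared with near copies, for ITGA3 (r = 0.995), LAMB2 for ITGB4 (r = 0.994), TGFBI for DST (r = 0.984), AKAP13 for ITGA6 (r = 0.971), ARHGAP31 for LAMA3 (r = 0.971), LATS2 for ITGB1 (r = 0.967) and PTPRK for COL17A1 (r = 0.947).

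RNAPII occupancy was read from the peak lists, which give a start and an end and no height. The main TSS lay in a listed peak for all 9 genes in NT cells, where 47.7% of 19869 protein-coding genes had such a peak, and for 8 of 9 in TAM cells, against 42.1%. With TPL these were 4 of 9 in NT cells, against 38.2%, and 5 of 9 in TAM cells, against 37.4%. The backgrounds hold genes at any RNA level, while in NT cells even DST was above 80.3% of the genes tested. The part of RNA level in these shares was not tested. In NT cells 9 members had a peak over the main TSS, and 5 of these had none there in NT + TPL cells. Of all genes with such a peak in NT cells, 22.9% had none there. In TAM cells 8 had one, and 3 of these had none there in TAM + TPL cells, against 19.1% of all genes. By any annotated start of a gene, 9 members had a peak in NT and 5 in NT + TPL cells. By that rule 9 had one in TAM and 6 in TAM + TPL cells, and the share of all genes was not taken. Each condition has 1 list, so there is no replicate check. The peak names point to replicate 1 in each list, and those of the TAM list carry another setting than the other 3 and mark 4584 of 11056 peaks as parts of a split peak, so widths and presence in TAM cells stand beside the others with that limit.

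ITGA2, ITGA3, ITGA6 and ITGB1 kept a peak over the main TSS in all 4 lists. The ITGA3 peak was 3037 bases wide in NT cells and 567 after TPL, and 2995 in TAM cells and 547 after TPL. It was narrower with TPL in both kinds of cell. The ITGB1 peak was 3680, 1026, 2554 and 1498 bases wide in the same order, and that of ITGA6 2817, 309, 787 and 340. The ITGA2 peak was 716, 249, 774 and 1429 bases wide, and so was widest in TAM + TPL cells, where its RNA differed from the DMSO libraries by -0.19 on the log2 scale. The TAM + TPL peak also held the start of ITGA2-AS1, which the other ITGA2 peaks did not. In the TAM list a second ITGA2 peak of 194 bases began 463 bases into the gene and is not in the width given. The median width of all peaks was 632 bases in NT cells and 553 after TPL, and 406 in TAM cells and 455.5 after TPL.

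The LAMB3 peak was the widest of all 11222 peaks listed in NT cells, with 46310 bases at chr1:209781371-209827680, and of all 11056 in TAM cells, with 44405 bases at chr1:209782481-209826885. Both cover the whole gene, which runs from chr1:209788215 to 209825770 on the minus strand, and the start of MIR4260 within it. In NT + TPL cells no peak was listed over any LAMB3 start. In TAM + TPL cells a peak of 500 bases remained over the main TSS, at chr1:209825586-209826085, and another of 294 bases began 964 bases further into the gene. LAMB3 RNA was thus lowest in the condition without a listed peak. Among the other chains, ITGA5, ITGB5, ITGB6, LAMA5, LAMB1, LAMB2 and LAMC1 had a peak at the main TSS in NT cells and none in NT + TPL cells. Of these, LAMB1, LAMB2 and ITGB5 RNA was higher in NT + TPL than in NT libraries without overlap, and ITGA5 RNA was lower. LAMB2 was at 17.1 and 20.5 FPKM in NT and at 47.9 and 32.6 in NT + TPL libraries. ITGB5 was at 5.75 and 7.9 FPKM in NT and at 8.42 and 11.8 in NT + TPL libraries. The libraries of LAMA5, LAMC1 and ITGB6 overlapped.

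ITGB4 had a peak of 8002 bases in NT cells (chr17:73716826-73724827) and of 5900 bases in TAM cells (chr17:73716806-73722705), and none with TPL in either. Its RNA was nevertheless higher in the NT + TPL than in the NT libraries. COL17A1, with peaks of 326 bases in NT and 771 in TAM cells, also had none with TPL, and its RNA did not pass in any contrast.

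**Figure D4:**
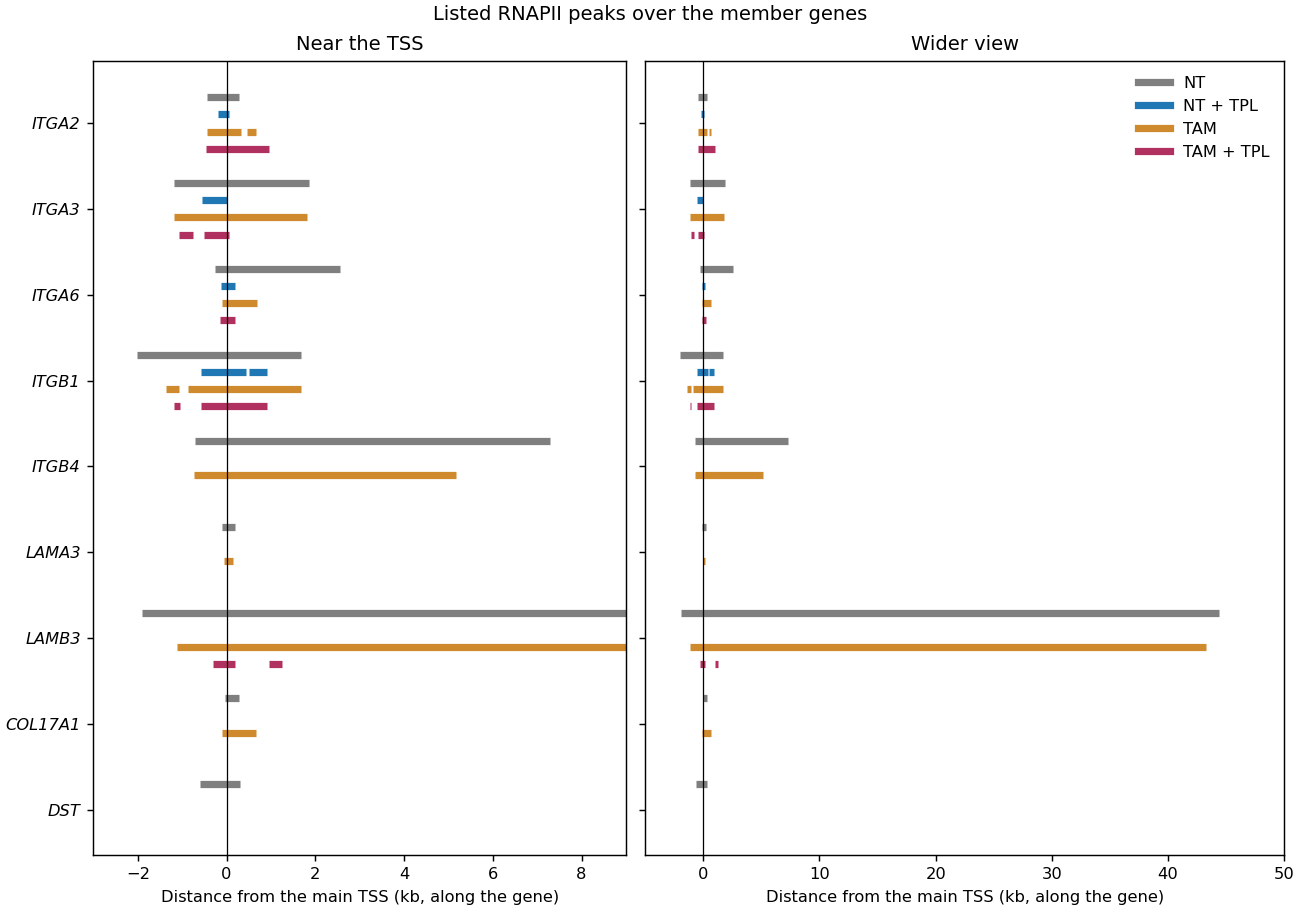
Extent of the listed RNAPII peaks (bars) by distance from the main TSS in kb along the direction of the gene (horizontal axes), near the TSS on the left and over a wider range on the right, for the 4 conditions. The LAMB3 peak spans 46310 bases in NT cells, and ITGB4 and COL17A1 have bars only in NT and TAM cells. Internal starts of LAMA3 and DST lie beyond the range.

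LAMA3 and DST have several annotated starts, at which the peaks differed. The main LAMA3 start, that of its longest transcript (10651 bases), lay in a peak of 299 bases in NT and 210 in TAM cells and in none with TPL. The internal start at chr18:21452984, from which a transcript of 5618 bases is annotated, lay in a peak in all 4 lists, of 925 bases in NT cells (278 after TPL) and 763 in TAM cells (306 after TPL). The mean length of the LAMA3 transcripts counted, a column of the files, was 5548 to 5673 bases with DMSO and 5579 to 5763 with TPL, close to the transcript of the internal start in all 8 libraries.

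DST had peaks at 3 places in NT cells: over the main start (909 bases), further on, from 110855 bases into the gene, over the starts of transcripts of 17657 and 18005 bases (547 bases), and at an internal start from which transcripts of 8971 and 9180 bases are annotated (694 bases). The NT peak over the main start also held the start of BEND6, and the next one that of DST-AS1. In TAM cells the peak at the internal start was the one listed, with 260 bases, and with TPL none was listed at any start in either kind of cell. The mean length of the DST transcripts counted was 11143 and 11060 bases in the NT libraries and 13447 and 12346 after TPL, and 11916 and 11884 in the TAM libraries and 14429 and 14403 after TPL. All 4 TPL libraries were above all 4 DMSO libraries, as for 7.57% of the 6673 genes whose length varied, and the change was above that of 98.9% of them. LAMB3 was also among those genes, with 4090 to 4095 bases against 4096 to 4107. This readout was chosen after the values were seen. DST RNA as a whole did not pass for TPL in either kind of cell, with a log2 fold change of -0.35 ± 0.25 in TAM cells (SE, edgeR adjusted p = 0.319), which was -0.59 with an adjusted p of 0.0219 when a trend with transcript length was removed.

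**Figure D5:**
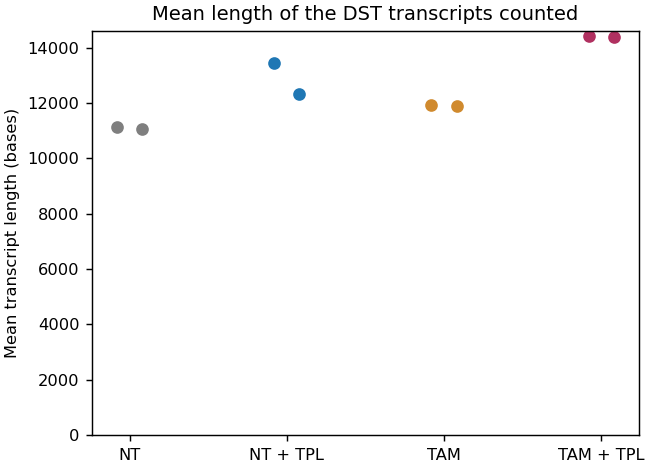
Mean length in bases of the DST transcripts counted (vertical axis, from 0), with 1 point per RNA-Seq library, by group. The 4 TPL libraries lie between 12346 and 14429 bases and the 4 DMSO libraries between 11060 and 11916.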

How the data were processed

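RNA-Seq was made by the authors from poly-A RNA, and reads were aligned with Bowtie2 to reference genes and quantified with RSEM. The expected counts were deposited without normalization, and the FPKM were deposited by the authors per transcript length and library total. Genes without a read are left out and were taken as 0. RNAPII ChIP peaks over TSSs were deposited by the authors as starts and ends, from reads aligned to hg19 and called with MACS. The submitters' processing notes give MACS 1.4.2. Read depth behind the peaks is not given in the lists. Rows were matched to symbols by gene ID (21077) or accession (2405), and 122 were not matched.

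Expected counts were rounded, filtered with filterByExpr and scaled by TMM, and edgeR 4.0.16 (R 4.3.3) gave quasi-likelihood tests, adjusted after Benjamini and Hochberg over 16948 genes, in 1 fit of the 4 groups, after tests on simulated data. TMM factors lay between 0.975 and 1.03, and the biological coefficient of variation was 0.315. Standard errors rest on 2 libraries per group and the spread shared across genes. Whether the libraries were counted by strand is not given in the sources used here, so reads of antisense or neighbouring genes that may overlap a member (ITGA2-AS1, DST-AS1, ITGB1-DT, PICART1) cannot be told apart from it. TSSs came from GENCODE release 44 on GRCh37, and the main TSS is that of the Ensembl canonical transcript.

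The genes named were the 9 members, PLEC, CD151 and COL7A1, up to 2 rises and 2 falls per list and contrast (TPL averaged, and TAM against NT with DMSO) that passed at 0.05 after adjustment with a mean of 1 FPKM or more, the gene most like each member, and GAPDH and ACTB. Some genes and sequences under this rule are not reported here. The peaks of ITGA5, LAMB1 and the chains named with them, the RNA given beside those peaks, and the ITGA6 second row were named after their values were seen. Members, lists and tests were chosen with earlier results of these data known. Alternatives were DESeq2 1.42.0, limma 3.58.1 on log2(FPKM + 1) and log2(FPKM + 0.1), other scalings and filters, a replicate block, the 2 groups compared alone, summed rows of a symbol, other rules for a peak, and each library left out. A fit with the trend with length removed, the ratios, the lengths, the peak widths and the internal starts were added after seeing the data. Whether samples with the same replicate number were handled together is not given in the sources used here. Replicate differences correlated between groups at -0.113 to 0.047 over 6 pairs of groups, which shows no strong shift shared by a number and cannot settle the pairing. The reported fit does not pair the samples.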

Additional observations from a re-analysis of the deposited data

Results flagged for a closer look

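The TPL effect on LAMB3 differed between TAM and NT cells by 2.41 on the log2 scale in the test of the difference itself (edgeR adjusted p = 0.0492). All 4 TPL libraries lay below the controls of their own kind of cell.

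ITGA6, in the row with its gene ID, moved in opposite directions: the 2 TPL libraries were below both controls in NT cells and above both in TAM cells, a difference of 2.78 on the log2 scale. The test of that difference did not pass (edgeR adjusted p = 0.277), and with its 2 rows summed the difference was 1.49 (edgeR adjusted p = 0.0829). Summed, the change with TPL in TAM cells was 0.21 (edgeR adjusted p = 0.504), so the rise seen in the gene ID row did not pass for the gene as a whole.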

How the results depend on the processing

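Over 1116 values of the members under the alternatives, 44 changed sign, 0 of them for the 16 contrasts of a member that passed by the adjusted p up to 0.05, and 8 of those 16 passed in every alternative. Of the values given above, ITGA2 changed sign with TPL in TAM cells under upper quartile normalization (0.054, median of all genes 0.29) and in TAM against NT cells with DMSO when scaled to equal GAPDH (-0.042, median of all genes -0.50).

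By the stricter rule, the count of members with TPL in NT cells, 1 as reported, was 2 with DESeq2 (2554 of all genes called), 2 when every library had to hold 10 counts (1435 of 12502) and 2 with summed rows (2001 of 15756). It was 0 in the fit of the 2 groups alone, which called 0 of 15735 genes. For TAM against NT cells with TPL, 1 as reported, it was 4 with DESeq2 (671 of all genes), 4 with the minimum of 10 counts (272), 4 with summed rows (409), 3 with the trend with length removed (139) and 0 in the fit of the 2 groups alone (0). DESeq2 gave 1 for TAM against NT cells with DMSO (745 of all genes) and 1 for the interaction (144), both 0 as reported. With the replicate block the counts were 0 for TPL in NT cells and 0 for TAM against NT cells with TPL, where 0 and 30 of all 16948 genes were called. The LAMB3 interaction was then 2.44 (adjusted p = 0.096) and ITGA3 in TAM against NT cells with DMSO 0.69 (adjusted p = 0.0698). Whether the replicate numbers pair the samples is not known. Leaving out a library gave 0 to 1 for TPL in NT cells, 0 to 1 for TPL averaged and 0 to 1 for TAM against NT cells with TPL. These fits have fewer samples, and a lone library is assumed to vary like the other groups. By the adjusted p up to 0.05 alone, the counts were 4 for TPL in NT cells, 4 averaged, 2 between TAM and NT cells in DMSO, 5 between them in TPL, and 1 for the interaction. With the fold of 1.2 kept as well, they were 2 for TPL in NT cells, 1 and 4 between the kinds of cell in DMSO and in TPL, and 1 for the interaction. The cause of the other changes was not tested.

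ITGB1 passed under upper quartile normalization for TPL in TAM cells (adjusted p = 0.0477) and averaged (adjusted p = 0.0464), COL17A1 averaged (lowest adjusted p = 0.0412), and LAMA3 with TPL in NT cells without NT + TPL replicate 1 (adjusted p = 0.0226). With peaks of at least 500 bases, 2 members kept a main TSS in a peak in NT + TPL cells, and the other rules kept the counts within 1.5 times.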
